A study of Mus musculus with 14 samples.

Results

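The muscle miRNAs miR-1, miR-133a, miR-133b and miR-206 were read in sorted cells of the mouse mammary gland by 5 RT-PCR assays, mmu-miR-1, rno-miR-1, mmu-miR-133a, mmu-miR-133b and mmu-miR-206. They are 5 of the 584 normalized miRNA assays, picked out by their names with passenger strands left out, and no value entered that rule. Both miR-1 assays are named for 1 miRNA, in mouse and in rat. Untreated cells were freshly isolated from adult FVB/N mice, with the mice pooled, and sorted by surface antigen into 4 populations. These were stroma (CD29-CD24-, 4 samples), the MaSC/basal fraction (CD29hi CD24+, 4 samples), mature luminal cells (CD29lo CD24+CD61-, 3 samples) and luminal progenitors (CD29lo CD24+CD61+, 3 samples). The MaSC/basal fraction holds mammary stem cells, basal progenitors and mature myoepithelial cells, so its values are averages over these. Epithelial samples 1 to 3 that carry the same number were sorted from 1 pool of mice, MaSC/basal 4 from another pool, and the 4 stromal samples from a further one. Stroma therefore cannot be told apart from its pool, and its SEs and p-values do not cover variation between pools.

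miR-1 and miR-133a are processed from shared primary transcripts of heart and skeletal muscle, and miR-206 and miR-133b from a shared transcript of skeletal muscle. miR-1 and miR-206 carry the same seed, the stretch of bases with which a miRNA pairs to its targets, and favour differentiation of myoblasts, whereas miR-133a and miR-133b share another seed and favour their proliferation. Myoepithelial cells are epithelial cells that contract by a smooth muscle type of actin and myosin, and they squeeze milk from the alveoli. Whether miRNAs tied by transcript or by seed moved together between the mammary populations is the question put to these values.

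Of the 4 miRNAs, 2 matched an entry among the RefSeq mature sequences (GRCm38.p6). They are the products of 1 locus on chromosome 1, and are shown because the results turn on the difference between them. Each is written 5′ to 3′ with the seed, bases 2 to 8, in capitals.
mmu-miR-206-3p, chr1:20679055-20679076, + strand: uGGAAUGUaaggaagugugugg
mmu-miR-133b-3p, chr1:20682834-20682855, + strand: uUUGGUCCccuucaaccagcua
The annotated hairpins, Mir206 at chr1:20679010-20679082 and Mir133b at chr1:20682769-20682887, lie 3686 bases apart on the same strand. miR-133a and miR-1 are named only.

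A Ct is the PCR cycle at which fluorescence crosses a threshold, so a lower Ct stands for more RNA, and 40 stands for no detection. The deposited values are a constant minus Ct after normalization across samples, a log2 expression value on which 1 unit is 1 cycle. A fold change given here assumes doubling at each cycle, and values of different assays are not set against each other, since assays differ in efficiency. All 5 muscle assays were detected in all 14 samples. miR-206 is on array plate B and the other 4 assays are on plate A. Of the miRNA assays, 338 to 366 were detected in each epithelial sample and 448 to 454 in each stromal sample. The summed level of 5 epithelial miRNAs (miR-200a, miR-200b, miR-200c, miR-141 and miR-429) was 20.62 to 21.56 on the log2 scale in stroma, 26.79 to 27.26 in MaSC/basal 1 to 3, 27.43 to 28.35 in mature luminal cells and 27.56 to 27.66 in luminal progenitors. That of 3 mesenchymal miRNAs (miR-199a-3p, miR-214 and miR-10b) was 26.40 to 26.83 in stroma and 19.06 to 20.01 in those epithelial samples. In such bulk samples fewer cells of a type and less RNA per cell cannot be told apart.

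1 library went against its label. MaSC/basal 4 lay nearer to the luminal mean than to the mean of MaSC/basal 1 to 3 for 159 of 185 probes, those that limma called between these 2 sets of cells. Its root mean square log2 distance over the probes tested was 2.78 to 3.08 to MaSC/basal 1 to 3, 1.92 to 2.24 to the mature luminal samples and 1.96 to 2.35 to the luminal progenitors. By name it is referred to as the library labelled MaSC/basal 4. Tests were made over the other 13 samples and repeated over all 14.

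The 4 plate A assays shared 1 order of levels among the epithelial populations, with the MaSC/basal fraction highest, mature luminal cells next and luminal progenitors lowest. mmu-miR-1 had normalized log2 values of 13.46, 13.23, 12.85 and 13.00 in stroma, 19.29, 19.38 and 18.93 in MaSC/basal 1 to 3, 15.86, 15.92 and 14.74 in mature luminal cells and 12.58, 11.86 and 13.03 in luminal progenitors. The MaSC/basal samples were the highest and did not overlap any other population, and stroma overlapped luminal progenitors. Read by the rat assay, rno-miR-1 had 14.81, 14.95, 14.47 and 14.48 in stroma, 20.82, 20.87 and 19.70 in MaSC/basal 1 to 3, 16.71, 16.84 and 15.64 in mature luminal cells and 14.18, 13.59 and 13.39 in luminal progenitors. Here the stromal samples lay above the luminal progenitors without overlap.

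miR-133a, the partner of miR-1 in its transcript, had values of 15.91, 16.24, 15.78 and 16.15 in stroma, 23.53, 23.63 and 22.59 in MaSC/basal 1 to 3, 17.98, 18.20 and 17.87 in mature luminal cells and 15.98, 15.98 and 16.48 in luminal progenitors. miR-133b, which shares its seed, had values of 10.68, 10.96, 9.80 and 10.41 in stroma, 19.49, 19.46 and 18.59 in MaSC/basal 1 to 3, 14.73, 14.92 and 14.35 in mature luminal cells and 10.88, 11.00 and 12.16 in luminal progenitors. For both, the MaSC/basal samples stood above all others, mature luminal cells stood above luminal progenitors, and the ranges of stroma and luminal progenitors overlapped. In the library labelled MaSC/basal 4 the values were 14.40 for mmu-miR-1, 15.89 for rno-miR-1, 16.96 for miR-133a and 12.65 for miR-133b. Each lies below MaSC/basal 1 to 3 and above the highest luminal progenitor.

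miR-206 had another order. Its values were 15.93, 17.28, 14.82 and 15.61 in stroma, 15.07, 13.40 and 14.19 in MaSC/basal 1 to 3, 16.07, 15.82 and 15.17 in mature luminal cells and 13.03, 13.01 and 12.93 in luminal progenitors. Luminal progenitors were below every other sample, and mature luminal cells were above the MaSC/basal samples by a narrow gap. The library labelled MaSC/basal 4, at 15.13, lay between MaSC/basal 1 and mature luminal 3. By population mean, the order was stroma at 15.91 ± 1.03 (SD, n = 4), mature luminal cells at 15.69 ± 0.46 (n = 3), MaSC/basal at 14.22 ± 0.83 (n = 3) and luminal progenitors at 12.99 ± 0.05 (n = 3). No neighbours in this order passed limma's adjusted test over 13 samples, though the 95% interval of MaSC/basal minus mature luminal was -2.74 to -0.20.

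**Figure D1:**
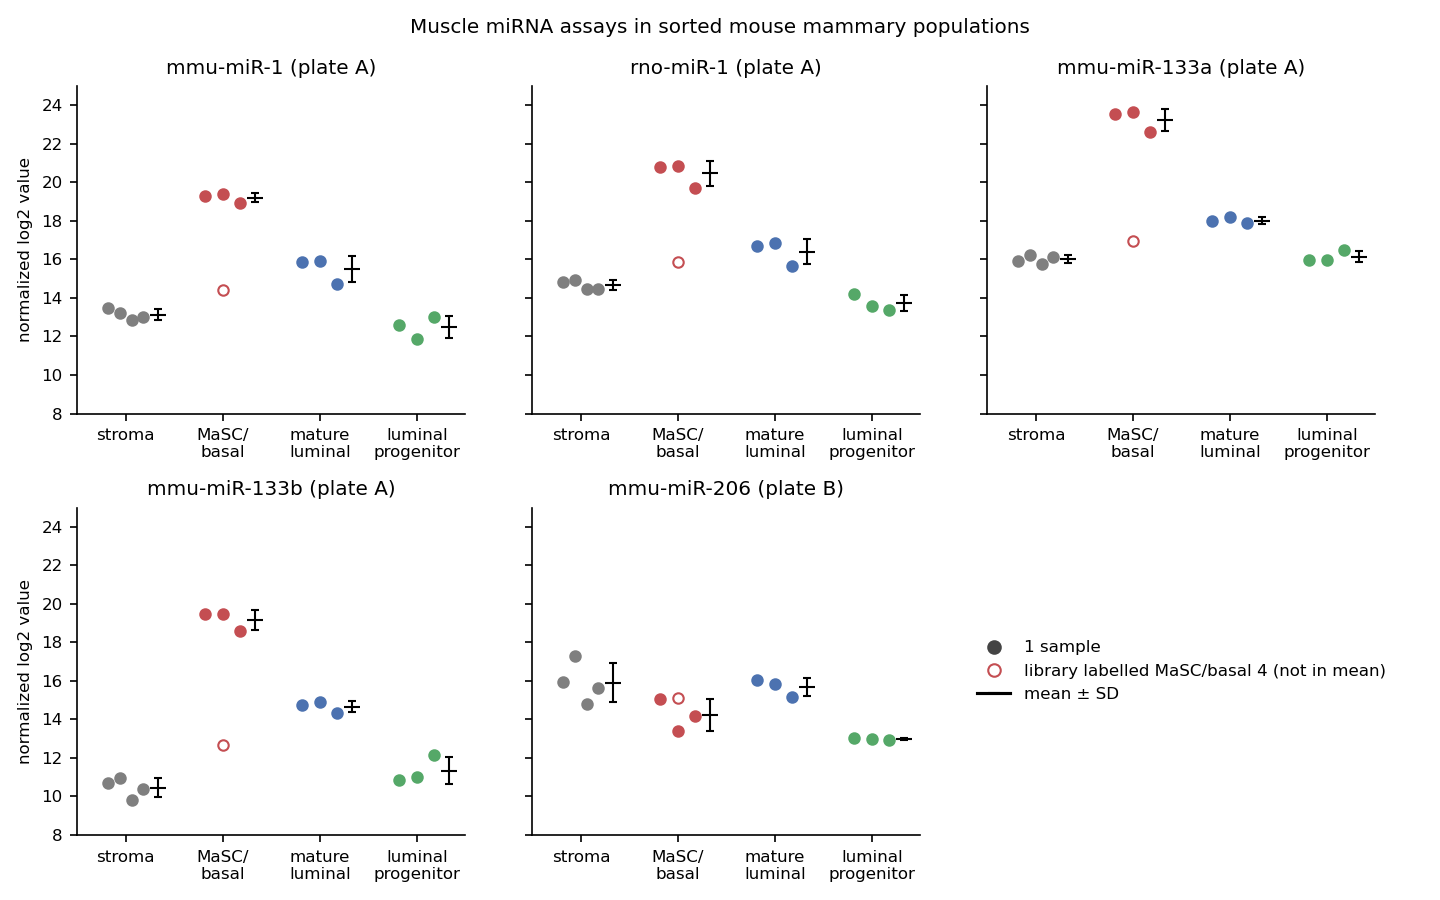
Normalized log2 values (y axis) of the 5 assays in the 4 populations (x axis), with 1 point for each sample, an open point for the library labelled MaSC/basal 4 and a bar for the mean ± SD of the others. On plate A the MaSC/basal samples lie above all others, from 18.93 for mmu-miR-1 and from 22.59 for miR-133a, whereas on plate B their miR-206 values lie between 13.40 and 15.07.

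MaSC/basal cells held far more miR-1, miR-133a and miR-133b than luminal progenitors, and miR-206 was not called. miR-133b averaged 19.18 ± 0.51 in MaSC/basal cells and 11.35 ± 0.71 in luminal progenitors (SD, n = 3 each), or 228-fold more (7.83 on the log2 scale, SE 0.41, limma's adjusted p = 9.91e-08). miR-133a was 138-fold higher (7.10, SE 0.27, adjusted p = 1.9e-08). The 2 miR-1 assays gave 105-fold for mmu-miR-1 (6.71, SE 0.36, adjusted p = 1.24e-07) and 107-fold for rno-miR-1 (6.74, SE 0.39, adjusted p = 1.91e-07). So 4 of the 5 assays were called higher, where 20.7% of the 459 probes tested were, and the median over the 5 was 6.74, against 0.07 over all probes. miR-206 differed by 1.23 (SE 0.57, 95% interval -0.04 to 2.50, adjusted p = 0.125). With U6 of the same plate as the only reference, the miR-206 difference was 2.58 with adjusted p = 0.00432, and with no normalization 1.86 with adjusted p = 0.0488. With all 14 samples the 4 plate A differences were 5.51 to 6.20 and stayed called.

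Against mature luminal cells the MaSC/basal fraction held 13.0-fold to 37.6-fold more of the plate A members. The log2 differences were 3.70 for mmu-miR-1 (SE 0.36, adjusted p = 1.25e-05), 4.07 for rno-miR-1 (SE 0.39, adjusted p = 1.08e-05) and 5.23 for miR-133a (SE 0.27, adjusted p = 8.68e-08). For miR-133b the difference was 4.51 (SE 0.41, adjusted p = 6.92e-06). These are 4 of 5 assays called higher, where 22.0% of all probes tested were, with a median of 4.07 over the 5 and 0.19 over all probes. miR-206 lay the other way, with -1.47 (SE 0.57, adjusted p = 0.0694). It was below 0 within each of the 3 pools, between -2.42 and -0.98, and with mouse pool as a fixed replicate block it passed the test (adjusted p = 0.0347). With the library labelled MaSC/basal 4 included, limma called 0 of the 5 in this comparison, though 4 had an unadjusted p under 0.05, and the plate A differences were 2.50 to 3.66 with adjusted p of 0.0563 to 0.148.

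The luminal populations differed in all 5 muscle assays, each higher in mature luminal cells than in luminal progenitors, where 10.9% of all probes were called higher. The gap was 9.98-fold for miR-133b (3.32 on the log2 scale, SE 0.41, adjusted p = 0.000389) and 8.07-fold for mmu-miR-1 (3.01, SE 0.36, adjusted p = 0.000389). rno-miR-1 was 6.38-fold higher (2.67, SE 0.39, adjusted p = 0.00108) and miR-133a 3.66-fold higher (1.87, SE 0.27, adjusted p = 0.00108). miR-206 was 6.48-fold higher (2.70, SE 0.57, adjusted p = 0.00687). Of the comparisons of 2 populations, it was the only one in which miR-206 and the 4 plate A assays were all called in the same direction with the normalization as deposited. The median over the 5 was 2.70, against -0.11 over all probes. Within each of the 3 pools every one of the 5 assays was higher in the mature luminal than in the luminal progenitor sample, by 1.39 to 4.06. With the library labelled MaSC/basal 4 added to the fit, 1 of the 5, miR-206, was still called (adjusted p = 0.0148). In that fit 4 of the 5 had an unadjusted p under 0.05. The differences stayed as they were, since that library is in neither of the means compared. With cyclic loess run on each plate separately, the miR-206 difference was 2.39 with adjusted p = 0.0886.

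Set against the mean of both luminal populations, MaSC/basal cells again had 4 of the 5 assays called higher, where 23.1% of all probes were. The log2 differences were 5.20 and 5.40 for the miR-1 assays and 6.17 for both miR-133a and miR-133b, with adjusted p of 9.24e-09 to 2.85e-07. miR-206 differed by -0.12 (SE 0.50, adjusted p = 0.883), with a 95% interval of -1.22 to 0.98. Its direction was not stable, and was 0.86 (adjusted p = 0.176) with U6 as the only reference and 0.11 (adjusted p = 0.892) over all 14 samples.

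**Figure D2:**
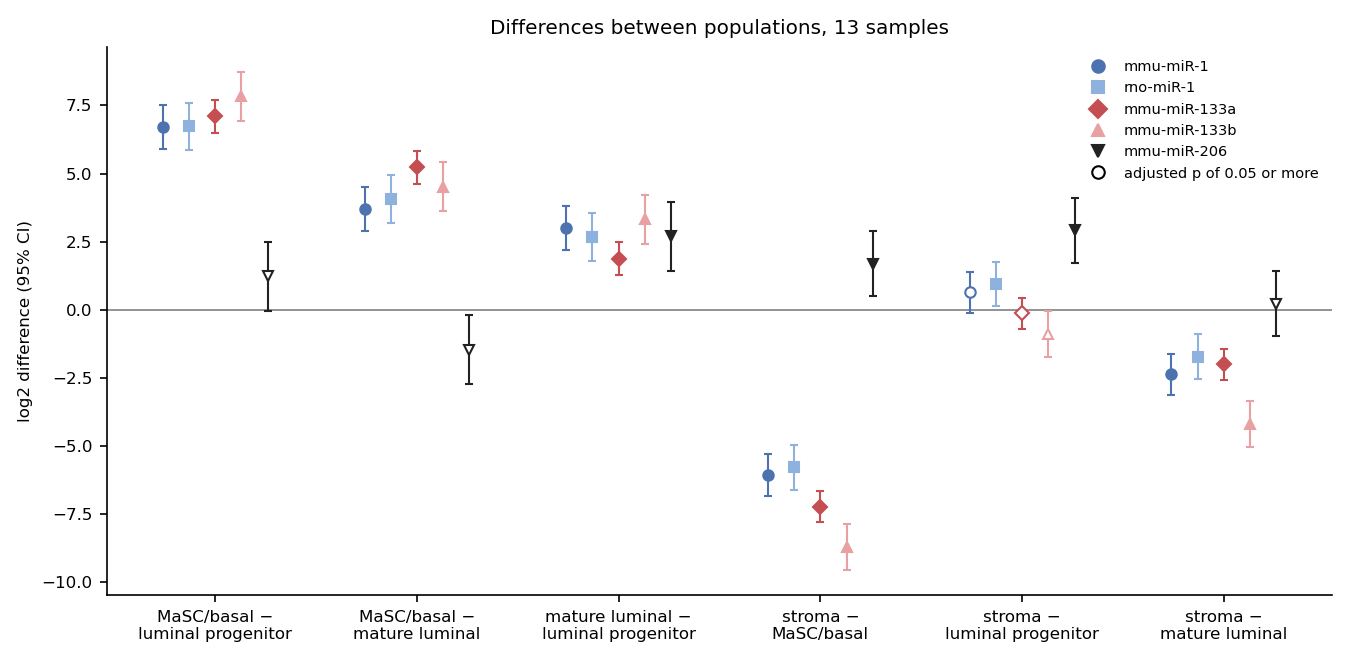
Log2 differences (y axis, bars give the 95% confidence interval of the limma fit over 13 samples) of the 5 assays in 6 comparisons of populations (x axis). Open symbols did not pass the test. miR-206 departs from the other 4 assays in 5 comparisons, and lies among them, at 2.70, between mature luminal cells and luminal progenitors.

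Stroma held much less of the plate A members than MaSC/basal cells and more miR-206. miR-133b averaged 10.46 ± 0.49 in stroma (SD, n = 4) and 19.18 ± 0.51 in MaSC/basal cells (n = 3), a 420-fold lower level in stroma (log2 difference -8.71, SE 0.38, adjusted p = 1.73e-09). miR-133a was 150.3-fold lower (-7.23, SE 0.26, adjusted p = 2.18e-10), and mmu-miR-1 67.0-fold lower (-6.07, SE 0.34, adjusted p = 1.68e-08). rno-miR-1 was 55.2-fold lower (-5.79, SE 0.37, adjusted p = 5.19e-08). So 4 of 5 were called lower, where 30.7% of all probes tested were, with a median of -6.07 over the 5 and 0.61 over all probes. miR-206 was the 1 assay called higher, 3.23-fold (1.69, SE 0.54, adjusted p = 0.0139), where 46.2% of all probes were. On plate B, that of miR-206, 108 of 159 probes were called higher and 33 lower. On plate A 104 of 300 were called higher and 108 lower.

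The stromal value of miR-206 stands beside a stromal shift in the median of its plate. Over the 159 plate B probes tested, the median log2 difference of stroma was 4.77 from MaSC/basal cells, 5.83 from mature luminal cells and 4.99 from luminal progenitors, and over the 300 plate A probes it was -0.12 from MaSC/basal cells, -0.37 from mature luminal cells and -0.05 from luminal progenitors. On plate B the control RNA snoRNA135 had a mean Ct of 16.3 in stroma and was not detected in any epithelial sample, whereas on plate A it was detected in all of them. U6 on plate B had a mean Ct of 12.4 in stroma, 12.3 in MaSC/basal cells, 11.3 in mature luminal cells and 11.6 in luminal progenitors. Of the plate B assays, 81 to 87 were detected in each epithelial sample and 160 to 162 in each stromal one. The plate B median thus takes in probes undetected in epithelium. It does not measure a shift of assays detected in all samples, such as miR-206. The control snoRNA202 was detected in all samples on both plates. Its plate B mean Ct was 13.7 in stroma, 33.4 in MaSC/basal cells, 34.5 in mature luminal cells and 33.1 in luminal progenitors. On plate A its means were 13.9, 16.8, 16.8 and 15.3 in that order. The control Y1, also detected in all samples, had plate B means of 24.4, 25.4, 26.3 and 25.6. What part plate B had in the stromal miR-206 values was not tested. Without MaSC/basal 2, the sample with the lowest miR-206 value of its fraction, the stroma minus MaSC/basal difference was 1.28 with adjusted p = 0.0667, and with loess on each plate separately it was 1.92 with adjusted p = 0.0547.

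Between stroma and luminal progenitors the plate A members were close. The log2 difference was 0.64 for mmu-miR-1 (95% interval -0.11 to 1.40, adjusted p = 0.104), 0.95 for rno-miR-1 (0.14 to 1.77, adjusted p = 0.0331), -0.13 for miR-133a (-0.70 to 0.44, adjusted p = 0.662) and -0.88 for miR-133b (-1.73 to -0.04, adjusted p = 0.0521). miR-206 was 7.57-fold higher in stroma (2.92, SE 0.54, adjusted p = 0.000434). These are 2 of 5 called higher, where 49.2% of all probes were, and 103 of the 159 probes on plate B, that of miR-206. The rno-miR-1 call was lost without stroma 1 (adjusted p = 0.0667), stroma 2 (0.0751), luminal progenitor 2 (0.0857) or luminal progenitor 3 (0.112), and over all 14 samples (0.385). The plate A values of this comparison followed the normalization. With U6 of the same plate as the only reference all 5 assays were called higher in stroma, at 3.99 for mmu-miR-1, 3.74 for rno-miR-1, 2.09 for miR-133a, 2.93 for miR-133b and 6.46 for miR-206. The share of all probes called higher with that reference is not given here, so this count does not set the members apart. The mean Ct of U6 on plate A was 12.7 in stroma, 13.3 in MaSC/basal cells, 12.0 in mature luminal cells and 12.4 in luminal progenitors, and its part in these shifts was not tested.

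Against mature luminal cells stroma was lower in 4 of the 5 assays, where 31.8% of all probes were called lower. The log2 differences were -2.37 for mmu-miR-1 (adjusted p = 6.52e-05), -1.72 for rno-miR-1 (adjusted p = 0.00126) and -4.20 for miR-133b (adjusted p = 1.25e-06), and in stroma miR-133a decreased by 2.00 on the log2 scale (adjusted p = 2.59e-05). miR-206 differed by 0.22 (95% interval -0.96 to 1.41, adjusted p = 0.712). With U6 as the only reference only miR-206 was called, at 3.02 (adjusted p = 0.000376), and mmu-miR-1 and rno-miR-1 differed by 0.21 and 0.34 without a call. Over all 14 samples miR-133b alone was called (adjusted p = 0.0137).

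**Figure D3:**
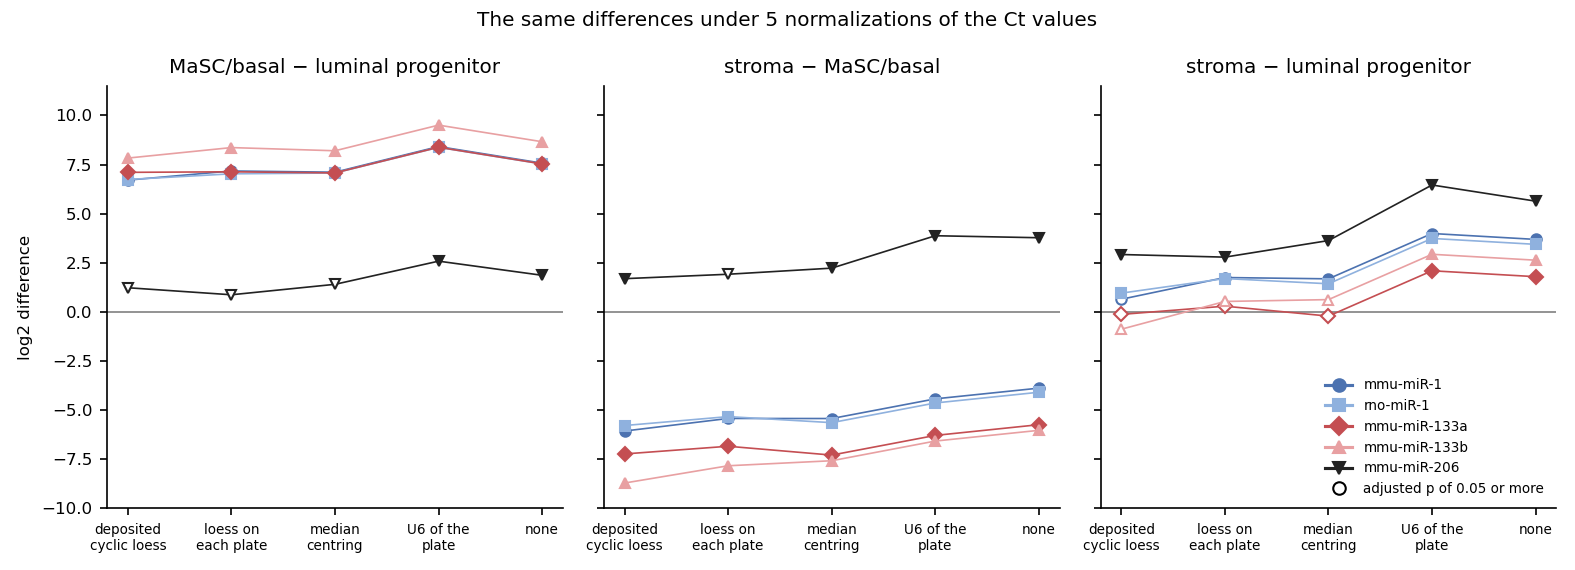
Log2 differences (y axis) of the 5 assays in 3 comparisons under 5 normalizations of the Ct values (x axis), with open symbols where the test was not passed. MaSC/basal minus luminal progenitor differences of the plate A assays range from 6.71 to 9.51 and pass the test throughout, and in stroma minus luminal progenitor the lines of miR-133a and miR-133b cross 0.

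To ask whether linked miRNAs moved by the same amount, the difference between 2 assays was taken within each sample and compared between populations by a two-sided exact permutation test, with p-values adjusted over 20 tests. The test of MaSC/basal against luminal samples (3 against 6) cannot give a p below 0.0238, and that of stroma against epithelium (4 against 9) none below 0.0028. For the products of 1 transcript, miR-133b minus miR-206 was -5.24, -6.32, -5.02 and -5.20 in stroma, 4.42, 6.06 and 4.39 in MaSC/basal 1 to 3, -1.33, -0.90 and -0.83 in mature luminal cells and -2.15, -2.01 and -0.77 in luminal progenitors. The MaSC/basal samples were the highest and stroma was the lowest, and neither overlapped any other population. It was 6.29 higher in MaSC/basal than in luminal cells (adjusted exact p = 0.0366, higher in 3 of 3 MaSC/basal samples). That test treats the 9 epithelial samples as exchangeable, although they come from 3 pools. Permuted within pools, which allows 27 arrangements and no p below 0.037, the adjusted exact p was 0.0569 for this pair and for each of the other 4 MaSC/basal changes that had passed. Before adjustment each of these stood at that lowest p. In stroma miR-133b minus miR-206 was 6.21 below that of epithelium (adjusted exact p = 0.00799). The 4 stromal samples come from 1 pool, so neither this nor the other exact p-values of stroma cover variation between pools. This pair also spans the 2 plates, and the plate B median was shifted in stroma as given above. In the library labelled MaSC/basal 4 the difference was -2.49. Whether the miR-133b assay also reads miR-133a, which has the same seed, was not tested.

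The seed partners miR-1 and miR-206 parted in the same way. mmu-miR-1 minus miR-206 was -2.47, -4.05, -1.97 and -2.61 in stroma, 4.23, 5.98 and 4.73 in MaSC/basal 1 to 3, -0.21, 0.10 and -0.43 in mature luminal cells and -0.45, -1.15 and 0.10 in luminal progenitors. MaSC/basal and luminal samples did not overlap, and the luminal populations did. The change was 5.32 between MaSC/basal and luminal cells (adjusted exact p = 0.0366), and -4.21 between stroma and epithelium (adjusted exact p = 0.00799). What part plate B had in the stromal changes of the pairs with miR-206 was not tested. With the library labelled MaSC/basal 4 included, at -0.73, the MaSC/basal change was 3.89 (adjusted exact p = 0.111), and that of miR-133b minus miR-206 was 4.43 (adjusted exact p = 0.111).

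Among the plate A members the differences in change were smaller. mmu-miR-1 and rno-miR-1 differed in their change by -0.20 between MaSC/basal and luminal cells (adjusted exact p = 0.702) and by -0.41 between stroma and epithelium (adjusted exact p = 0.168). The transcript partners mmu-miR-1 and miR-133a differed by -0.97 between MaSC/basal and luminal cells (adjusted exact p = 0.068), and the difference of the seed partners miR-133a and miR-133b was 4.07 ± 0.09 in MaSC/basal cells (SD, n = 3) and 4.08 ± 0.84 in luminal cells (n = 6, adjusted exact p = 0.905). Within the luminal samples, that pair was at 3.25, 3.28 and 3.53 in mature luminal cells and at 5.10, 4.98 and 4.32 in luminal progenitors, without overlap. mmu-miR-1 minus miR-133b was lower in MaSC/basal than in luminal cells, with a change of -0.97 (adjusted exact p = 0.0366, and 0.0569 permuted within pools). In stroma miR-133a minus miR-133b was 1.48 above epithelium and mmu-miR-1 minus miR-133b was 2.00 above it (adjusted exact p = 0.00799 each). The miR-133a and miR-133b change in stroma was 0.03 with U6 alone, with median centring or with no normalization, and then did not pass (adjusted exact p = 0.931 to 0.934).

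**Figure D4:**
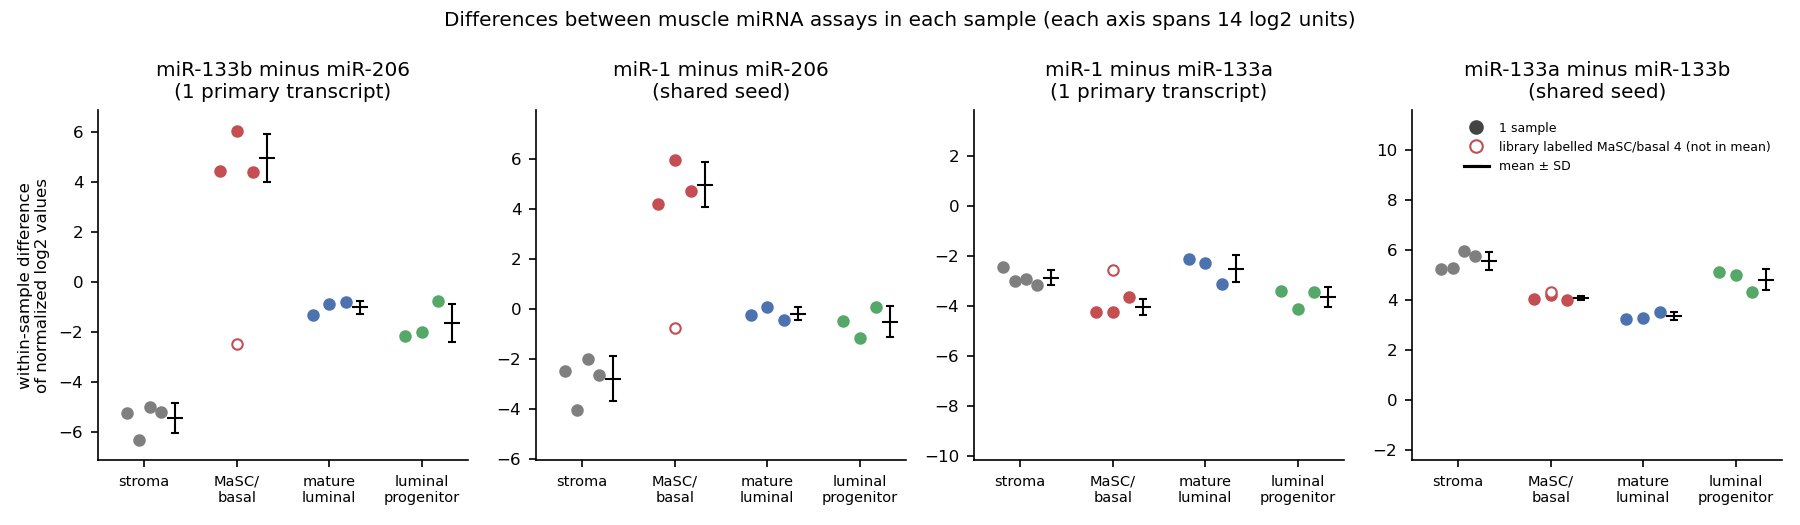
Within-sample differences of normalized log2 values (y axis, each axis spans the same number of log2 units) between 4 pairs of assays in the 4 populations (x axis), with points for samples and bars for the mean ± SD without the library labelled MaSC/basal 4 (open point). The pairs with miR-206 reach 4.96 and 4.98 on average in MaSC/basal cells, far above the luminal samples, and miR-133a minus miR-133b lies between 3.25 and 5.97 in all samples.

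The other assays of these miRNAs and of other muscle miRNAs gave little or no signal. The passenger strand assay mmu-miR-133a* was detected in 3 of 14 samples, with a lowest Ct of 37.8, and rno-miR-1* in 0 of 14. Of the miRNAs of heart and striated muscle outside the members, 4 of 5 had an assay (miR-208, miR-208b, miR-499 and miR-486), and 0 of 4 passed the filter on low values. miR-499, which lies in a myosin heavy chain gene, and miR-486, which is made in muscle and red cells, were at a Ct of 40 in every sample. The summed level of the 4 assays was 2.32 to 2.39 in stroma, 2.48 to 2.57 in MaSC/basal 1 to 3, 2.58 to 5.77 in mature luminal cells and 2.53 to 3.60 in luminal progenitors. In the library labelled MaSC/basal 4 it was 7.95, and miR-208 alone was at 7.92.

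miR-143 and miR-145, the pair of smooth muscle that myocardin and serum response factor switch on, were high where miR-1 and miR-133 were high, but had another order among the rest. miR-143 was 21.83 ± 0.08 in stroma (SD, n = 4), 26.03 ± 0.55 in MaSC/basal cells, 19.38 ± 0.31 in mature luminal cells and 20.50 ± 0.04 in luminal progenitors (n = 3 each). In MaSC/basal cells both were called higher, with a median log2 difference of 5.24 from luminal progenitors and 6.46 from mature luminal cells. In mature luminal cells both were called lower than in luminal progenitors (median -1.23), where 11.1% of all probes were, and so ran against all 5 muscle assays in that comparison.

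Of 16 miRNAs tied to myoblast differentiation or proliferation, 15 were tested. In MaSC/basal cells 7 were higher and 4 lower than in luminal progenitors, where 20.7% of all probes were called higher and 15.9% lower. The counts against mature luminal cells were also 7 and 4, where 22.0% of all probes were called higher and 13.9% lower. miR-221 and miR-222, which target the cell cycle inhibitor p27, were 2.96 and 3.11 higher in MaSC/basal cells than in luminal progenitors (adjusted p = 1.85e-06 for miR-221 and 3.66e-06 for miR-222). miR-322 and miR-503, an X-linked pair that favours exit from the cell cycle in myoblasts, were lower in MaSC/basal cells. There miR-322 fell by 4.00 on the log2 scale (adjusted p = 1.85e-06) and miR-503 fell by 5.66 (adjusted p = 8.32e-07). miR-125b-5p was higher by 3.40 (adjusted p = 3.81e-07). Between mature luminal cells and luminal progenitors 4 of the 15 were higher and 3 lower, where 10.9% of all probes were called higher and 11.1% lower, and miR-24 was among the higher ones (adjusted p = 0.013). The list thus moved in both directions in each comparison.

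Markers of other cells were compared beside the MaSC/basal values. The 2 endothelial assays (miR-126-3p and miR-126-5p) were both called higher in MaSC/basal cells than in luminal progenitors, with a median log2 difference of 1.19, and their summed level was 24.57 to 24.78 in MaSC/basal 1 to 3, 24.10 to 24.78 in mature luminal cells and 23.24 to 23.49 in luminal progenitors. Of the 3 mesenchymal assays, limma called 0 between MaSC/basal cells and luminal progenitors, and 1 had an unadjusted p under 0.05, with sums of 19.32 to 20.01 in MaSC/basal 1 to 3, 19.46 to 19.68 in mature luminal cells and 19.06 to 19.87 in luminal progenitors. Of the 5 blood cell assays (miR-142-3p, miR-142-5p, miR-223, miR-150 and miR-451), 0 were called in that comparison and 0 had an unadjusted p under 0.05. Between mature luminal cells and luminal progenitors, where all 5 muscle assays were higher, 1 of the 2 endothelial assays was called, miR-126-3p, higher by 1.00 (adjusted p = 0.0121). Of the mesenchymal assays miR-10b was called higher there by 1.26 (adjusted p = 0.00519) and miR-214 lower (-1.17, adjusted p = 0.0121), and 0 of the 5 blood cell assays were called or had an unadjusted p under 0.05. The part of endothelial and mesenchymal cells in the muscle miRNA values was not tested.

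By the root mean square distance between profiles over 13 samples, each centred on its own mean, the assays most like the mean of the 4 plate A members were miR-205 (1.54), miR-204 (1.65), miR-338-3p (1.72), miR-298 (1.75) and miR-301a (1.78), against a median of 3.06 over 299 candidates detected in every sample. miR-205, a miRNA of basal epithelium, was 16.58 ± 0.90 in stroma (SD, n = 4), 23.38 ± 0.52 in MaSC/basal cells, 18.29 ± 0.80 in mature luminal cells and 19.16 ± 0.33 in luminal progenitors (n = 3 each). Its mean was lower in mature luminal cells than in luminal progenitors, where those of the members were higher. The means of miR-204 (17.94 against 19.13) and miR-338-3p (10.64 against 11.95) were also lower there. Those of miR-298 (13.88 against 12.15) and miR-301a (20.70 against 19.71) were higher, as in the members. These differences were not tested here. miR-206 lay nearest to miR-21 (0.82), miR-10b (0.90) and miR-132 (0.93), with a median of 1.91 over the same candidates, and none of these is on plate B. miR-21, a miRNA abundant in many tissues, was 23.89 ± 0.24 in stroma, 21.45 ± 0.46 in MaSC/basal cells, 23.82 ± 0.86 in mature luminal cells and 20.75 ± 0.27 in luminal progenitors. By mean, miR-21, miR-10b and miR-132 all had the order of populations that miR-206 had, and they were picked for nearness to its profile. Among the members the nearest profiles were those of the miR-1 assays, at 0.42, and miR-206 was 2.85 to 3.83 from each of the others.

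**Figure D5:**
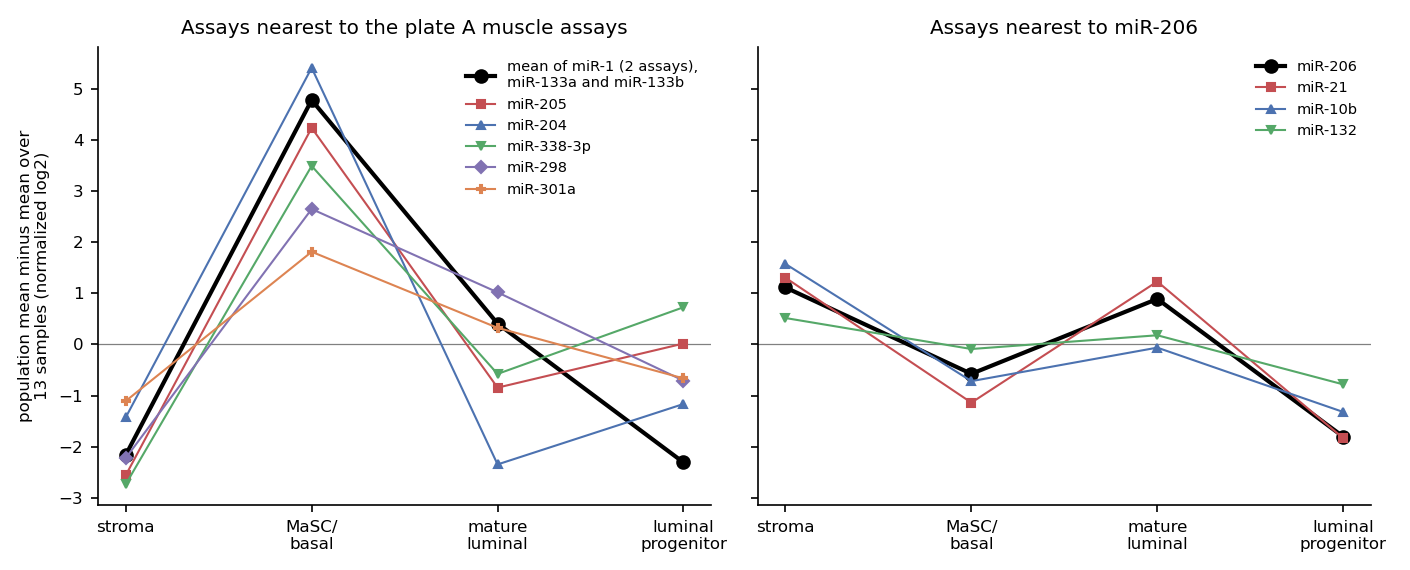
Population means minus the mean over 13 samples (y axis, normalized log2) across the 4 populations (x axis) for the mean of the plate A members with its 5 nearest assays and for miR-206 with its 3 nearest. miR-205 and miR-204 peak with the plate A members in MaSC/basal cells, and miR-21 follows miR-206 with high values in stroma and mature luminal cells.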

How the data were processed

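RNA was reverse transcribed from stem-loop primers, pre-amplified and run on 2 array plates. The labels of these mouse samples name human pre-amplification primers and the study's methods list mouse and human ones, and which were used was not settled here. The deposited Ct values, a score for 597 assay positions, were read by the authors at a manual threshold, with 40 for no detection. The authors made the log2 values of 584 probes as a constant minus Ct, followed by cyclic loess (span 0.7, 5 iterations) with U6 weighted 100. Run again from the Ct values, this gave the deposited values to within 5.3e-14. The deposited table of the authors' own comparison, which holds log2 fold changes, mean expression, t, log-odds, p and FDR, was not used. The members and lists were chosen with earlier results of these data known. The assays named beside the members are passenger strands, 3 muscle lists, markers of other cells and the probes nearest by profile.

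Probes were kept where 3 or more samples had a normalized log2 value of 2 or higher, 459 over 13 samples and 460 over 14, all 5 members among them. Population means were compared by limma (version 3.58.1, lmFit and eBayes, under R 4.3.3) (9 residual and 1.44 prior degrees of freedom), with Benjamini-Hochberg adjustment over all probes at 0.05. Differences between assays were tested with Python 3.11.15 and scipy 1.17.1. Both were checked on simulated data. Depth was taken as the count of miRNA assays detected, and precision is limited by how few samples there are. Deviations from the population means correlated with a median of 0.22 in 9 pairs of samples of the same pool and of -0.12 in 18 pairs of different pools, and since the labels give the same mice to equal numbers, the numbers pair the epithelial samples. Alternatives were 4 normalizations, 3 treatments of low values, mouse pool as a fixed or random block, other fits, all 14 samples and each sample left out. For differences between assays, leaving out a sample and permuting within pools were chosen after seeing the data.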

Additional observations from a re-analysis of the deposited data

Results flagged for a closer look

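In 3 of 10 groups of 4 samples tested, 1 sample lay far from the others by Dixon's ratio of gap to range, and chance flags about 1 in 20 groups. All 3 come from the library labelled MaSC/basal 4, which had already been set apart above, and from assays that move together. They are therefore not separate flags to be set against that rate. It had 14.40 for mmu-miR-1, where MaSC/basal 1 to 3 had 18.93 to 19.38 (ratio 0.908). It had 16.96 for miR-133a, where the others had 22.59 to 23.63 (ratio 0.844), and 12.65 for miR-133b, where they had 18.59 to 19.49 (ratio 0.868). Its miR-206 value, 15.13, lay between those of MaSC/basal 1 (15.07) and mature luminal 3 (15.17).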

How the results depend on the processing

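With the library labelled MaSC/basal 4 added, the assays called by limma were 0 of 5 between MaSC/basal and mature luminal cells and 1 of 5 each for mature luminal cells against luminal progenitors, stroma against luminal progenitors and stroma against mature luminal cells, and 7 of 20 differences between assays passed, against 13. The change of miR-133a minus miR-133b between MaSC/basal and luminal cells was then 0.0578, and the miR-206 difference between MaSC/basal cells and the luminal mean 0.11. Over all probes the calls were then 95, against 168 with 13 samples, for MaSC/basal minus luminal progenitor, 84 against 165 for MaSC/basal minus mature luminal, 110 against 185 for MaSC/basal minus the luminal mean and 45 against 101 for mature luminal minus luminal progenitor, and this last count was 51 with U6 alone and 44 with no normalization.

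With U6 as the only reference the count was 5 for stroma minus luminal progenitor and 1 for stroma minus mature luminal, and with no normalization it was 5 for stroma minus luminal progenitor. The shares of all probes called in these stromal comparisons under these settings are not given here. Signs that turned were, with U6 alone, miR-206 in MaSC/basal cells minus the luminal mean (0.86), mmu-miR-1 (0.21) and rno-miR-1 (0.34) in stroma minus mature luminal, and miR-133a (2.09) and miR-133b (2.93) in stroma minus luminal progenitor. In that comparison miR-133a was 1.79 and miR-133b 2.63 with no normalization, miR-133b was 0.63 with median centring, and with loess on each plate miR-133a was 0.29 and miR-133b 0.53. The change of mmu-miR-1 minus rno-miR-1 between stroma and epithelium was 0.11 with U6 alone, with median centring and with no normalization. The cause was not tested.

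Leaving out 1 sample at a time gave 1 to 3 assays called for stroma minus luminal progenitor and 7 to 13 differences between assays. rno-miR-1 lost its call between stroma and luminal progenitors without luminal progenitor 2 or 3 or stroma 1 or 2 (adjusted p = 0.0667 to 0.112). miR-206 ranged from -0.54 to 0.29 in MaSC/basal cells minus the luminal mean, highest without MaSC/basal 2, and from -0.23 to 0.59 in stroma minus mature luminal, below 0 without stroma 2 (-0.23) and mature luminal 3 (-0.03). miR-133a ranged from -0.21 to 0.0392 in stroma minus luminal progenitor. The change of miR-133a minus miR-133b between MaSC/basal and luminal cells ranged from -0.17 to 0.20. Without a MaSC/basal sample, 2 against 6 samples cannot pass the exact test.

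With mouse pool as a fixed replicate block, 4 assays were called for MaSC/basal minus luminal progenitor, 5 for MaSC/basal minus mature luminal and 5 for mature luminal minus luminal progenitor. The shares of all probes called with this block are not given here. The block added miR-206 in MaSC/basal minus mature luminal (-1.47, adjusted p = 0.0347) and changed no other call among these limma comparisons. This difference also passed with no normalization (adjusted p = 0.0451), with median centring (0.0247) and without MaSC/basal 1 (0.0348), stroma 2 (0.0238) or stroma 3 (0.0464). With pool as a random block (consensus correlation 0.2) the counts stayed as they were. Permuted within pools, no MaSC/basal change of a difference between assays passed (lowest adjusted exact p = 0.0569). The changes at that value had an unadjusted exact p of 0.037, the lowest that 27 arrangements allow. No stronger outcome was possible for them in this test. The 7 differences that then passed were all between stroma and epithelium, a test that was not permuted within pools. The alternatives gave 1624 values, counts of calls among them, of which 1455 stayed. For a difference this means the same direction and side of the threshold, and for a count a value within a set ratio of the main one. Another 24 changed sign, 95 lost their call, 25 gained one and 25 counts moved. Epithelial plate B values rest on 81 to 87 detected assays a sample, and stromal ones on 160 to 162.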
